A study of Glycine max with 8 samples.

Results

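The regions described here are 1176 stretches of soybean chromatin, each at least 500 bp wide, that were open in leaf, flower and seed and in which no reproducible root region lay. Open chromatin was measured as MNase hypersensitive sites, that is, stretches that micrococcal nuclease releases as short fragments when nuclei are only lightly digested. A site list was deposited for each of 8 libraries of Glycine max, strain Williams 82, with 2 libraries each for Leaf (stage V2), Flower (stage R1), Seed (stage R4) and Root (stage V2). Leaf, root and seed material came from greenhouse plants and flowers from plants in a field, so growth site differs together with tissue for flower. For all 8 libraries, flower included, the listed growth conditions are 12 h of light, 28 °C by day and 25 °C by night. Whether these hold for the field plants cannot be told from the list. Leaf libraries started from 0.5 g of ground tissue and all others from 1 g, with the same units of nuclease. Nuclease per amount of ground tissue therefore differs together with tissue for leaf. The seed stage is R4 in the seed records, while the growth text in the other records gives R1. The labels leave unsaid whether separate plants gave the paired libraries. All groups were whole tissues with many cell types, so a shorter site and a site open in fewer cells cannot be told apart.

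A reproducible region of a tissue is the stretch, at least 20 bp long, over which a site of its first library and a site of its second library overlap. Reproducible regions of the 4 tissues were merged into 82364 regions. Of these, 18600 (22.6%) contained a reproducible region of leaf, flower and seed and none of root, and 1176 of the 18600 (6.32%) were at least 500 bp wide after merging. The other 17424 are called narrow shared regions. Among all merged regions, 2.02% reached 500 bp. The members were thus chosen by the positions and widths of the listed sites, and counts and widths below describe that choice. No p-value is given, because the lists that would be tested chose the regions and because 2 libraries against 2 cannot pass a two-sided exact test.

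In plants, DNA that is free of nucleosomes lets transcription factors reach promoters and distal regulatory elements, and such DNA is cut first by nucleases. A narrow hypersensitive site can hold a single cluster of bound factors, whereas a wide one can span several such clusters with protected DNA between them. Open chromatin present in several organs is often found at genes that most cells use, and organ-restricted sites more often lie at genes with organ-specific use. No source used here names the genome build of the lists, so regions are named by position in the deposited coordinates, and neither genes nor sequence were assigned.

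The lists differed in length and site width. Leaf, flower and seed libraries held between 50078 and 82798 sites, and root libraries 15185 and 18957. Leaf lists held 2145 and 1705 sites of at least 500 bp, flower lists 532 and 779, seed lists 1029 and 261, and root lists 53 and 46. Read depth is unknown, since the files list sites and not reads. The leaf, flower and seed lists hold no site under 100 bp, whereas 79.0% and 82.3% of the root sites are shorter than that.

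Most members lay close to the width minimum. Their median width was 569 bp, the middle 50% ran from 528 to 639 bp, and together they spanned 704 kb. Of the members, 473 (40.2%) were 500 to 549 bp wide and 101 (8.59%, 95% Wilson interval 7.12 to 10.3) reached 750 bp. Only 9 reached 1000 bp, and the widest spanned 1187 bp. The narrow shared regions had a median of 277 bp. At the threshold itself there was no break: 57 shared regions fell short of 500 bp by at most 5 bp, and 65 met it and exceeded it by at most 5 bp. Just outside, the reproducible regions covered a median of 94.0% of the width in leaf, 61.4% in flower and 45.8% in seed. Just inside, those medians were 91.1%, 61.3% and 54.9%.

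A large width in leaf was the usual mark of these regions, and a large width in all 3 tissues was rare. Both leaf libraries held a site of at least 500 bp in 780 members (66.3%), whereas all 6 libraries did so in only 8 (0.680%). In 63 members (5.36%) none of the 6 libraries held such a site, and the width came from shorter sites of different tissues laid end over end. The description "wide and shared" therefore holds for the merged span and seldom for the span open in each tissue. Wide merged regions without leaf were nearly absent from the series. Of 1663 merged regions of at least 500 bp, with any combination of tissues, 1661 contained a reproducible leaf region. Among all 82364 merged regions, 60364 contained one. Leaf also had the most reproducible regions of at least 500 bp, 1092 against 252 in flower, 101 in seed and 32 in root. No region of flower and seed without leaf, of 1526, reached 500 bp. Leaf also had less ground tissue per library at the same nuclease units, and the part of this in the leaf widths was not tested.

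Leaf sites covered 94.1% and 92.5% of the summed width of the members in its libraries (93.3% ± 1.13, SD, n = 2). Flower sites covered 67.7% and 75.7% (71.7% ± 5.64, SD, n = 2). Seed sites covered 80.3% and 56.9% (68.6% ± 16.6, SD, n = 2). Both leaf libraries lay above all flower and seed libraries, while flower and seed overlapped and the seed libraries differed more from each other than either differed from flower. In the narrow shared regions leaf again covered most, 92.1% and 90.04%, but the distance to the other tissues was smaller, with 72.9% and 79.5% in flower and 86.2% and 71.6% in seed. From narrow to wide, the covered share was thus higher by 1.92 and 2.43 percentage points in leaf, and lower by a difference of -5.24 and -3.86 points in flower and -5.89 and -14.7 points in seed. The same number of sites, 50078, was then taken from each of the 6 lists by score, an alternative chosen after seeing the data. Regions were rebuilt from these shortened lists, which gave 995 wide shared regions. In those, leaf covered 94.4% and 92.6%, flower 69.7% and 76.5%, and seed 78.6% and 57.0%. The shortened lists chose these regions too, and their coverage of the full set of members was not tested.

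**Figure D1:**
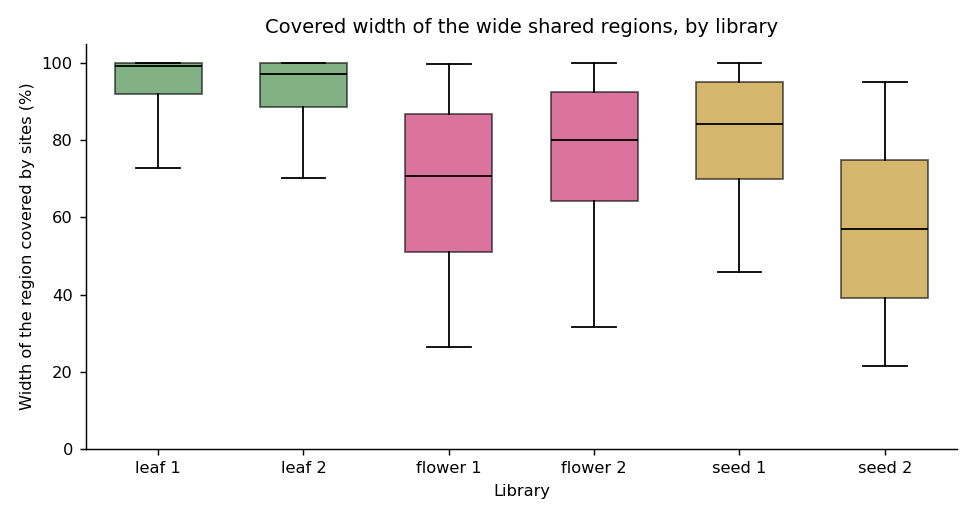
Share of each wide shared region's width covered by sites (%, vertical axis) in the 6 leaf, flower and seed libraries (horizontal axis); boxes span the middle 50% of the 1176 regions with the median as a line, and whiskers run from percentile 5 to 95. Leaf medians are 99.2 and 97.2, flower medians 70.8 and 80.2, and seed medians 84.3 and 56.9.

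Region by region, leaf had the largest reproducible coverage of the 3 tissues in 931 members (79.2%), flower in 135 (11.5%) and seed in 106 (9.01%). Leaf also led in the narrow shared regions, where these shares were 62.5%, 13.9% and 22.8%. Reproducible leaf regions filled at least 90% of the width in 772 members (65.6%), reproducible flower regions in 154 (13.1%) and reproducible seed regions in 74 (6.29%), against 55.5%, 14.5% and 21.1% of the narrow shared regions. Leaf also set the outer limits most often. The left edge was that of a reproducible leaf region in 58.6% of members, of flower in 16.7% and of seed in 25.8%, and the right edge gave 56.9%, 16.8% and 26.9%. The order was the same in the narrow shared regions, with 49.9%, 20.1% and 31.6% for the left edge. In 402 members (34.2%) both edges came from leaf and in 220 (18.7%) neither did, against 25.6% and 25.4% of the narrow shared regions.

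Flower and seed opened these stretches in pieces more often than leaf did. In the leaf libraries 7.14% and 9.86% of members held 2 or more sites, in the flower libraries 30.2% and 24.9%, and in the seed libraries 31.7% and 35.7%. Both leaf values were below all flower and seed values. For narrow shared regions leaf gave 0.867% and 1.08%, flower 4.22% and 4.01%, and seed 3.85% and 4.67%. Counting reproducible regions, 139 members (11.8%) were divided in leaf, 370 (31.5%) in flower and 428 (36.4%) in seed, against 1.12%, 4.42% and 3.79% of all merged regions with the tissue in question. A longer region has more room for a second site, and how much of the difference comes with width alone was not tested.

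The pieces did not always fall in the same tissues. Of the 1176 members, 473 (40.2%) held 1 reproducible region in each tissue, 240 were divided in seed alone, 195 in flower alone and 129 in flower and seed with leaf undivided. Leaf alone was divided in 51 and all 3 tissues in 17. Exactly 1 site in each of the 6 libraries was found in 288 members (24.5%, 95% Wilson interval 22.1 to 27.0), against 84.7% of narrow and 80.9% of all shared regions. With only the higher-scoring 50% of each scored list, which held 611 such wide regions, the share was 57.9%. The gaps between sites inside a member were short: leaf gaps had medians of 51 and 54 bp, flower gaps 69 and 61.5 bp, and seed gaps 64 and 88 bp. Between 55.7% of the gaps (leaf 1) and 73.1% (seed 2) had their centre in the middle of 3 equal parts of the region.

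**Figure D2:**
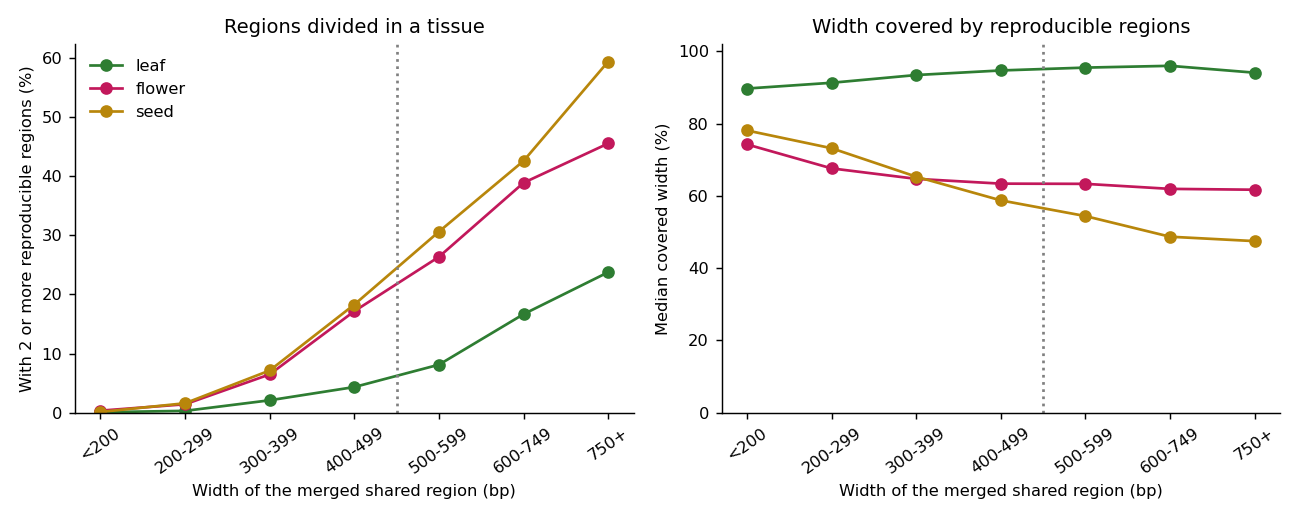
Shared regions by width (bp, horizontal axes; the dotted line marks 500 bp): left, percent of regions with 2 or more reproducible regions in a tissue; right, median percent of the width covered by the tissue's reproducible regions. Divided regions rise with width in all 3 tissues, to 23.8% in leaf, 45.5% in flower and 59.4% in seed at 750 bp and above, while median coverage stays between 89.7% and 96.0% in leaf and falls from 78.1% to 47.5% in seed.

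Coverage by the tissues parted along a gradient of merged width, with no step at 500 bp. Leaf most often set the edges that define this width, so leaf coverage and width are not independent. How much of the gradient follows from that was not tested. In shared regions of 200 to 299 bp the median coverage by reproducible regions was 91.3% in leaf, 67.6% in flower and 73.2% in seed. At 600 to 749 bp these medians were 96.0%, 61.9% and 48.7%. Seed stood above flower at 200 to 299 bp, and was already below it at 400 to 499 bp, with 58.7% against 63.4%.

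The stretch open in all 6 libraries made up a small part of a member. This common core had a median length of 176 bp, or 29.9% of the width, against 120 bp and 46.1% in narrow shared regions. It was in 1 piece in 713 members (60.6%) and in 2 or more in 396 (33.7%), and in 67 (5.70%) no base was covered in all 6 libraries. In narrow shared regions these shares were 91.0%, 5.70% and 3.30%. In 13 members the core reached 500 bp, and the longest measured 645 bp.

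Around the midpoint the members formed a plateau in leaf and a lower, less even one in flower and seed. Leaf sites covered the midpoint of 98.4% and 98.2% of members, flower sites 78.9% and 86.7%, and seed sites 86.1% and 59.4%. At 200 bp to the left, leaf had 94.1% and 91.8%, flower 63.9% and 74.1%, and seed 79.2% and 56.1%. Seed 2 was nearly flat across the region, and its highest value, 64.6%, lay off the midpoint. When each region was cut into 3 equal parts, the middle part exceeded the mean of the end parts by 15.2 and 15.3 percentage points in flower, by 6.20 and 7.67 in leaf, by 8.73 in seed 1 and by 3.52 in seed 2. In narrow shared regions the same excess was 19.1 points in seed 2 and 13.9 in seed 1. At 500 bp to either side all 6 libraries had dropped to between 2.21% and 6.12%, which is still above the 1.01% to 1.82% of the chromosome span that their lists cover. Narrow shared regions also stood above that share at this distance, with 2.59% to 4.66% in the 6 libraries.

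**Figure D3:**
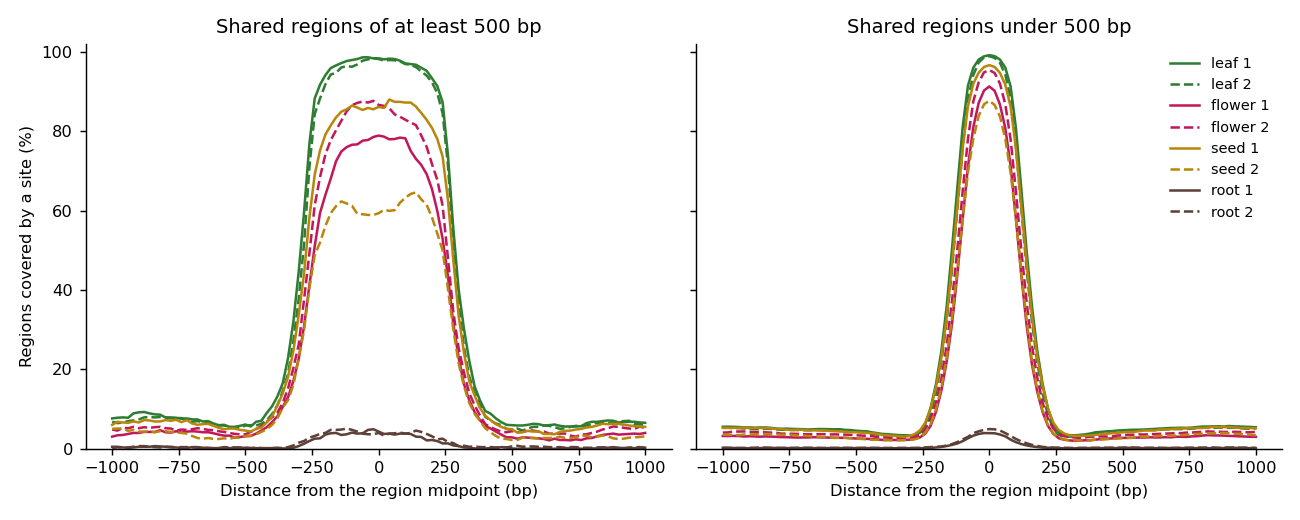
Percent of regions covered by a site (vertical axis) at each distance from the region midpoint (bp, horizontal axis) for the 1176 wide (left) and 17424 narrow (right) shared regions; colours are tissues, solid lines replicate 1 and dashed lines replicate 2. Leaf forms a flat top near 98% over the wide regions, seed 2 stays at or below 64.6%, and both root libraries remain at or below 5.10%.

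The widest member lay at chr11:26687645-26688831 (1187 bp). Leaf sites covered 100% and 97.2% of it, flower sites 76.7% and 89.0%, and seed sites 58.0% and 21.5%. The seed 2 site there was a single one of 255 bp, and this was also the whole common core, whereas leaf 1 had 1 site of 1254 bp reaching past both edges of the merged region. The next, at chr14:44228063-44229194 (1132 bp), held the most sites over the 6 libraries among the 10 widest members. Seed 2 held 4 sites in it, seed 1 held 3, leaf 1 and flower 2 held 2 each, and leaf 2 and flower 1 held 1 each. Its core of 592 bp lay in 4 pieces and took up 52.3% of the width.

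Both of the next regions spanned 1106 bp and differed in how much was common. At chr3:1868966-1870071 leaf covered 98.6% and 92.0%, flower 86.2% and 85.6%, and seed 89.7% and 56.6%, and the core measured 345 bp. At chr12:38902062-38903167 leaf was almost fully covered, 100% and 99.2%, while flower had 25.0% and 58.3% and seed 49.3% and 42.8%, and only 21 bp were open in all 6 libraries. In that region the flower sites lay towards the right and the seed sites mostly towards the left and centre.

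**Figure D4:**
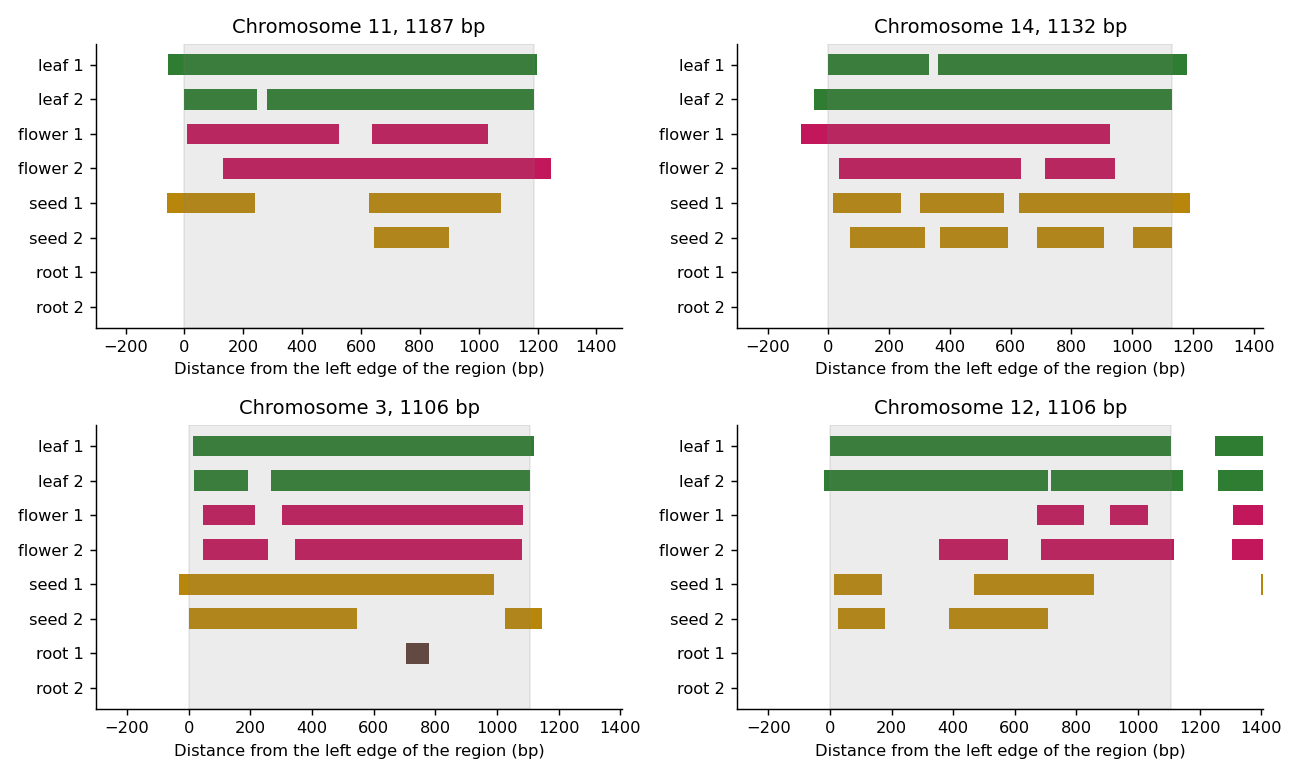
Sites of the 8 libraries (bars, coloured by tissue) in the 4 widest shared regions, by distance from the region's left edge (bp, horizontal axis), with the merged region shaded grey. Leaf sites run almost the whole width of each region, seed and flower sites are divided in several of them, and the only root site is that of root 1 on chromosome 3.

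Of the remaining 6 of the 10 widest members, 2 lay on chromosome 5, 2 on chromosome 9 and 1 each on chromosomes 6 and 7. At chr5:7353741-7354778 (1038 bp) leaf covered the whole width in both libraries, and seed 2 covered 41.2% in 2 sites. At chr5:37370200-37371228 (1029 bp) flower coverage was low, 38.2% and 54.5%, with seed at 80.0% and 45.4%. At chr7:7293729-7294737 (1009 bp) leaf was again complete in both libraries, flower reached 77.7% and 91.6%, and seed 72.6% and 35.6%. At chr6:16701693-16702694 (1002 bp) coverage was at least 69.5% in every leaf, flower and seed library and the core measured 500 bp, nearly 50% of the region. The chromosome 9 pair lay at chr9:43177190-43178194 (1005 bp) and chr9:43131456-43132440 (985 bp). In the first, seed 1 covered 89.7% in 3 sites and seed 2 only 29.4% in 2. In the second, seed 1 covered the whole width with 1 site of 1032 bp, above both leaf libraries at 97.6% and 96.3%.

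In some members a single tissue was open across the whole region and the others over a small part of it. Both leaf libraries covered more than every flower and seed library in 596 members (50.7%), both flower libraries exceeded all others in 49 and both seed libraries in 51. The lead of leaf was over 20 percentage points in 162 members, that of seed in 11 and that of flower in 2. These counts use the site positions that chose the members, and leaf sites set most of the edges. They were not made for narrow shared regions, so a lead of leaf is not shown to be particular to the members. Leaf had the largest reproducible coverage in 62.5% of narrow shared regions, against 79.2% of members.

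The largest lead of leaf was at chr6:12328724-12329376 (653 bp). Leaf covered 100% in both libraries, flower 22.1% and 15.6%, and seed 32.8% and 27.4%, and no base was shared by all 6. At chr10:1901362-1901890 (529 bp) leaf covered all of it and the other libraries 19.7% to 46.9%. At chr18:2433558-2434175 (618 bp) leaf was likewise complete and the others lay between 23.9% and 48.2%.

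Seed had its largest lead at chr2:6795185-6795954 (770 bp). Seed covered 100% and 96.1%, leaf only 17.3% and 19.9% with sites of 133 and 153 bp, and flower 34.7% and 35.1%. At chr5:6041477-6041997 (521 bp) seed was complete in both libraries, leaf had 52.2% and 51.8%, and flower 29.9% and 35.5%. At chr15:47753767-47754563 (797 bp) seed was also complete, with leaf at 62.0% and 57.6%. These regions were picked for high coverage in both seed libraries.

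Flower led by less. At chr18:879671-880288 (618 bp) flower covered 100% and 97.2%, leaf 71.0% and 63.9%, and seed 44.2% and 46.0%. At chr3:38604258-38604767 (510 bp) flower was complete, leaf had 76.9% and 46.9%, and seed 58.2% and 28.0%. At chr17:7459165-7459696 (532 bp) flower covered 88.7% and 100% and no other library more than 71.2%.

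Every site of the leaf, flower and seed lists has a score from the authors. How it was computed is not stated, so it served only to rank sites within 1 list. The rule did not use it, but it comes from the same site calls. For the highest-scoring site in each member, leaf had median percentiles of 90.8 and 90.5, flower of 81.7 and 86.8, and seed of 85.1 and 75.6. In narrow shared regions the medians were 79.2 and 77.8, 64.5 and 73.0, and 78.4 and 65.3, so the wide regions ranked higher in 6 of 6 lists. Sites above percentile 90 make up 10% of each list. Leaf lists had one in 54.6% and 51.7% of members, flower lists in 33.5% and 41.7%, and seed lists in 36.4% and 23.8%. A member with several sites has more chances of a high one. Width and score also moved together without the threshold: the mean of the 6 medians was 56.8 in shared regions under 200 bp and 87.6 in those of at least 750 bp.

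A high rank was not a property of every member. The lowest percentile of the best site in any member was 11.2 and 7.998 in leaf and 0.144 and 0.398 in flower 1 and seed 2. Rank agreed better between libraries of a tissue than between tissues: over the 1176 members Spearman's rho of the percentiles averaged 0.565 for the 3 same-tissue pairs (range 0.378 to 0.665) and 0.245 for the 12 pairs of different tissues (range -0.064 to 0.464). For the covered share these averages were 0.566 and -0.072. The regions share their lists and were chosen by width, so these values are descriptions.

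The 3 members with the highest mean percentile were shorter than the widest ones. At chr9:45653802-45654552 (751 bp) the percentiles ran from 97.3 to 99.4 over the 6 lists, at chr15:5742766-5743323 (558 bp) from 95.8 to 99.6, and at chr10:46154270-46154783 (514 bp) from 96.5 to 99.8. The chromosome 15 and chromosome 10 regions held 1 site in every one of the 6 libraries, and their cores took up 60.6% and 61.9% of the width. Each of the 3 also met a root site in at least 1 root library.

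No member contained a reproducible root region, but many met a root site. A site of 1 root library was present in 396 members (33.7%, 95% Wilson interval 31.0 to 36.4) and sites of both in 61 (5.19%), none of which overlapped each other there by 20 bp or more. This left 719 (61.1%) with no root site. Among narrow shared regions, 1.33% met sites of both root libraries and 78.6% met none. Taken singly, root 1 sites met 237 members (20.2%), against 10.1% of narrow shared regions. Root 2 sites met 281 (23.9%), against 12.6%. Of all merged regions without a reproducible root region, 4.64% met a root 1 site and 5.85% a root 2 site. Members are wider, with a median of 569 bp against 277 bp in narrow shared and 182 bp in all merged regions. When root sites under 100 bp were dropped, 11.0% of the members then chosen met a site of 1 root library. Among all merged regions without a reproducible root region, 9.53% met a site of 1 root library, and among narrow shared regions 20.1% did. Per unit of length, wide and narrow regions were close. Per 10 kb, members held 3.85 root 1 and 4.55 root 2 sites, and narrow shared regions 3.62 and 4.60. Root sites covered the midpoint of 4.34% and 4.00% of members and of 3.94% and 4.96% of narrow shared regions.

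The root sites inside members were short, with a median of 70 and 71.5 bp, and the widest measured 297 bp. Of the members with a site of 1 root library, the 3 widest were these. The region chr3:1868966-1870071 held a root 1 site of 76 bp, chr7:7293729-7294737 a root 2 site of 119 bp and chr6:16701693-16702694 a root 2 site of 85 bp. Among the 10 widest members, chr9:43177190-43178194 met sites of both root libraries, of 82 and 86 bp. A root 2 site of 103 bp lay in chr9:43131456-43132440. The 719 members without a root site had lower ranks in the other tissues than the 396 with a site of 1 root library. The median percentile was 89.0 against 93.5 in leaf 1, 89.0 against 92.5 in leaf 2, 77.5 against 87.3 in flower 1, 84.2 against 89.5 in flower 2, 81.3 against 90.2 in seed 1 and 72.7 against 78.3 in seed 2. In all 6 lists the 61 members with sites of both root libraries stood higher still, at 95.4, 95.6, 93.4, 94.1, 94.3 and 86.7 in the same order. Their median widths, 567, 569.5 and 580 bp, hardly differed.

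Members occurred on all 20 chromosomes, from 33 on chromosome 16 to 89 on chromosome 11, or 1.24 per Mb over the 949 Mb spanned. Chromosome 11 was the densest with 2.56 per Mb, followed by chromosome 13 with 1.90 and chromosome 17 with 1.75, and chromosome 14 was the sparsest with 0.776. Narrow shared regions also favoured chromosomes 13, 11 and 17. The share of wide among all shared regions ran from 4.79% on chromosome 14 to 9.30% on chromosome 11. Chromosome 11 is also the chromosome on which every root line occurs a second time in the deposited root lists, and after the repeats were removed it had the lowest density of reproducible root regions of the 20. Reproducible root regions kept 6 wide regions of leaf, flower and seed out of the set on chromosome 11 and 13 on chromosome 13. With those counted back in, chromosome 13 held 100 and chromosome 11 held 95, while chromosome 11 stayed the denser, at 2.73 against 2.18 per Mb. The part of the repeated lines in this order was not tested.

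**Figure D5:**
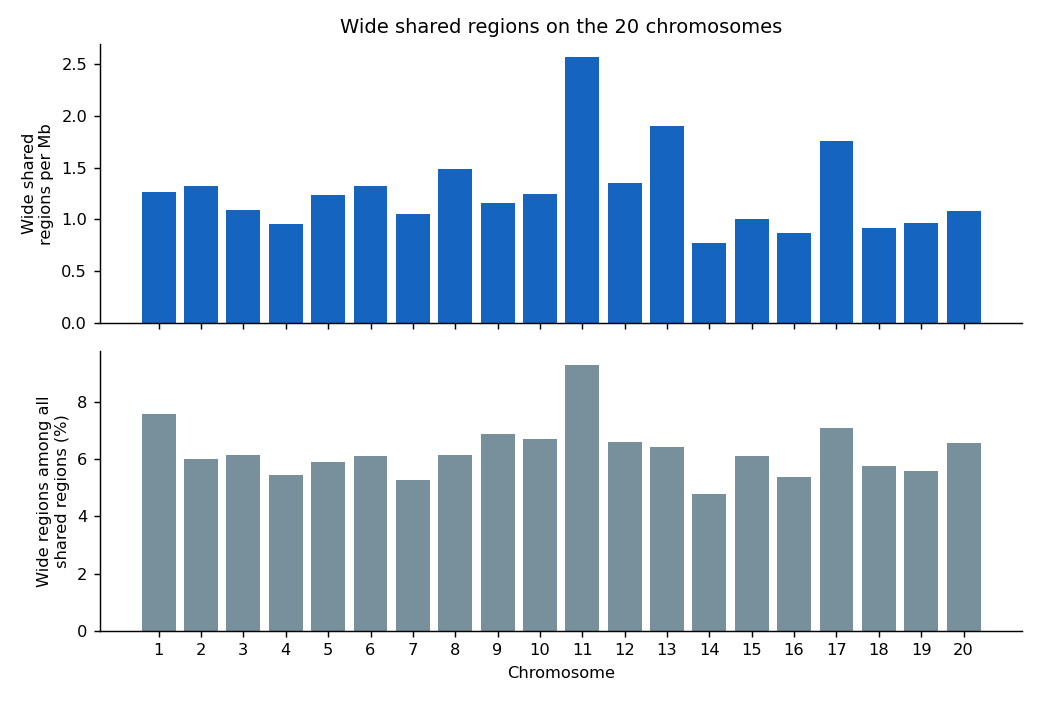
Wide shared regions per Mb (upper bars) and their percent of all shared regions (lower bars) on the 20 chromosomes (horizontal axis). Chromosome 11 stands highest in both, at 2.56 per Mb and 9.30%, and chromosome 14 lowest, at 0.776 per Mb and 4.79%.

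Position along the chromosome was not part of the rule. The midpoint of 781 members (66.4%, 95% Wilson interval 63.7 to 69.1) lay in the outer 20% at either end of a chromosome, against 68.1% of narrow shared and 65.9% of all merged regions, a share near the background. Per Mb the outer parts held 2.97 times as many members as the inner parts. The outer parts were denser on 19 of 20 chromosomes, and chromosome 13 was the exception with 1.53 per Mb in its outer and 2.14 in its inner part. The outer share was higher for wide than for narrow regions on 8 of 20 chromosomes. Inner and outer members were alike in width, with medians of 566 and 570 bp.

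Members were mostly far apart, although a few windows held many. The median distance to the next member was 145 kb, and 140 members (11.9%) had another within 10 kb. Of 956 windows of 1 Mb, 447 held none. The window of chromosome 13 that starts at 34000001 held 13 members beside 52 narrow shared regions, that of chromosome 9 from 45000001 held 10 beside 44, and that of chromosome 11 from 3000001 held 9 beside 72. The share of wide regions was 20%, 18.5% and 11.1% in these windows, against 6.32% in all. These windows were picked for holding the most members, so a share above 6.32% follows in part from that choice.

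The closest members were 77 bp apart, at chr7:43336567-43337419 and chr7:43337497-43338048, with widths of 853 and 552 bp. The next pairs lay 177 bp apart at chr20:45854056-45854707 and chr20:45854885-45855612, and 235 bp apart at chr5:26137518-26138208 and chr5:26138444-26139046. Taking every merged region as a neighbour, the nearest lay at a median of 1178.5 bp from a member and 1566 bp from a narrow shared region, and 45.1% of members had one within 1 kb against 37.7% of narrow shared and 44.6% of all merged regions.

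Regions chosen without a tissue were then read in that tissue, at the midpoint, so that length gave no advantage. Of 396 regions of at least 500 bp built from flower and seed alone, leaf covered the midpoint of 383 (96.7%, 95% Wilson interval 94.5 to 98.1), against 91.5% at 200 to 299 bp and 83.2% below 200 bp. Leaf covered a median of 91.1% of the width of the 396, although leaf had no part in choosing them. Of 1136 such regions built from leaf and seed, flower covered the midpoint in 63.8% (61.0 to 66.6), against 36.1% below 200 bp, 56.0% at 200 to 299 bp, 64.8% at 300 to 399 bp and 65.9% at 400 to 499 bp. Of 1055 built from leaf and flower, seed covered the midpoint in 45.2% (42.2 to 48.2), below the 58.2% at 200 to 299 bp and close to the 45.0% below 200 bp, while the share that seed met anywhere rose from 67.6% to 85.0%. In seed 1 alone the midpoint shares at these widths were 82.1% and 87.1%, and in seed 2 alone 48.4% and 61.6%, so both seed libraries were lower in the wide regions, and seed 2 was the lower of the pair at both widths.

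Regions were also built from the first library of each tissue and read in the second, and the reverse. Of 2653 regions of at least 500 bp built from the first libraries, 39.2% (37.4 to 41.1) had their midpoint covered in the second libraries of leaf, flower and seed together, against 25.0% at 100 to 199 bp and 46.4% at 200 to 299 bp. Of 2023 built from the second libraries, 53.3% (51.1 to 55.5) were covered in all first libraries, against 42.6% and 56.2%. Leaf was found again most often, in 91.0% and 92.3% of these wide regions, flower in 76.5% and 65.3%, and seed in 49.3% and 80.1%. Root covered the midpoint in 3.32% and 2.92%. In both directions a wide region was found again in all 3 tissues more often than one of 100 to 199 bp. It was found again less often than regions of every class from 200 to 499 bp. The share was highest at 300 to 399 bp, with 52.9% and 61.1%, and was 47.9% and 58.5% at 400 to 499 bp. Against 200 to 299 bp the counting intervals just met for regions built from the second libraries (55.2 to 57.2 at 200 to 299 bp).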

How the data were processed

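Per the labels' protocols, 1% formaldehyde fixed 0.5 g of ground leaf, or 1 g of another ground tissue, for 10 min, nuclei were digested for 10 min at 37 °C with 0, 0.01, 0.03 or 0.1 unit of micrococcal nuclease, and gel-purified DNA under 100 bp was sequenced. Per the submitters' processing notes, Trimmomatic 0.36 and BWA 0.7.15-r1140 were used. No source used here names the site caller, its threshold or the build. The authors deposited, per library, site positions in base pairs and, except for root, a score of unstated definition.

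Repeated lines (479 in root 1, 649 in root 2) were removed. Starts were read as counting from 0 and are printed from 1. Regions were intersected (at least 20 bp), merged where they overlapped or touched, and measured with Python 3.11.15 and pandas 2.3.3. The code was tested on simulated data. Chromosome span is the last site end in any list. Wilson intervals are 95% and cover counting error only. Named regions follow a fixed rule: the 10 widest, the 3 highest by mean score percentile, the 3 largest leads per tissue, the 3 widest with a site of 1 root library, the 3 closest pairs and the 3 fullest windows. Members and lists were chosen with earlier results of these data known.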

Additional observations from a re-analysis of the deposited data

How the results depend on the processing

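The share of members in the outer chromosome parts and the mean covered share moved by less than their counting interval or replicate spread under 18 of 18 alternatives. For the covered share that spread was wide, a pooled within-tissue SD of 10.1 percentage points. Staying within it is therefore a weak sign of stability. The main count of 1176 became 3226 with a minimum of 400 bp, 425 with 600 bp, 611 with the higher-scoring 50% of each scored list and 719 when any root site excluded a region. The share with 1 site in each library, 24.5%, became 20.1% when regions up to 50 bp apart were merged, 57.9% with the higher-scoring lists, 42.1% at 400 bp, 12.9% at 600 bp and 35.8% with equal list lengths, an alternative chosen after seeing the data, as was merging only overlapping regions, which gave 1174 members. The share meeting a site of 1 root library, 33.7%, became 39.8% with the higher-scoring lists, 29.8% at 400 bp and 11.0% when root sites under 100 bp were dropped. The share of at least 750 bp, 8.59%, was 3.13% at 400 bp and 23.8% at 600 bp. The mean score percentile, 85.1, was 89.9 with the higher-scoring lists. The share of midpoints found again in the other libraries, 45.3% over both directions, was 41.0% with the 50 bp merge, 39.9% with the higher-scoring lists, 47.6% without root sites under 100 bp, 49.8% at 400 bp and 40.2% at 600 bp. The share found again in the other tissue, 61.3% over the 3 tissues, was 59.3% with the 50 bp merge, 54.1% with the higher-scoring lists, 64.0% at 400 bp and 55.9% at 600 bp. The cause was not tested.

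When each library was left out in turn, the whole list of its partner stood in for the reproducible regions of that tissue. Overlap of 2 libraries was then not required there, which lets in more regions of that tissue. The count ran from 1462 to 1997 without a leaf, flower or seed library, and it was 1997 without seed 2. It was 895 without root 1 and 939 without root 2. These shifts follow in part from the changed rule. The mean covered share was taken over the libraries kept. The share of at least 750 bp ran from 7.77% to 10.5%, the outer share from 65.9% to 68.3%, the share with 1 site per library from 23.5% to 35.4%, the mean covered share from 71.1% to 77.6%, the mean percentile from 81.9 to 84.7 and the share with a site of 1 root library from 19.7% to 32.6%. In the last, 19.7% without root 1 and 23.4% without root 2 count the library left out. No paired analysis was possible because no result comes from a test and the replicate numbers only name libraries. Lists give no read depth, so DNA outside all listed sites may still be open.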
